A study of Drosophila melanogaster with 2 samples.

Results

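The 31 genes described here encode proteins of differentiated neurons, taken from a list of symbols: RNA-binding proteins, vesicle and active zone proteins, ion channels, transmitter enzymes and transporters, and neuronal surface and cytoskeletal proteins. They are 31 of the 13945 protein-coding genes on the 6 chromosome arms (2L, 2R, 3L, 3R, 4 and X), and all 31 symbols matched 1 gene each. The question asked of each gene was whether peaks of the forkhead factor Sloppy paired 2 (Slp2) had summits in the transcribed span or in the 5 kb on either side, and whether any lay within 500 bp of one of its own transcription start sites (TSSs). The peaks came from chromatin immunoprecipitation and sequencing with an anti-GFP antibody in embryos of a transgenic Drosophila melanogaster line (strain 9T-GFP) whose Slp2 carries GFP at its C terminus. There was 1 group, aged 0 to 24 hours, males and females pooled, with biological replicates 2 and 3 and no second condition. Whole embryos were used, so binding in neurons cannot be told apart from binding in other cells. Per the readme files, a control data set also went into the lists, and it was not analysed here. The number of reads behind each list is not given in the files, so depth is unknown.

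Neurons signal by releasing transmitter from synaptic vesicles. Depolarisation opens sodium and then calcium channels, calcium acts on synaptotagmin, and the SNARE proteins synaptobrevin, syntaxin and SNAP-25 fuse the vesicle with the membrane at the active zone, while potassium channels end the signal. Genes for this machinery are switched on as embryonic neurons differentiate. Slp2 is known as a pair-rule factor of the embryonic segments and, in the developing optic lobe, as one of the factors that neuroblasts express in sequence.

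Strong peaks lay in the windows of about as large a share of these genes as of all genes with windows of 13824 bp or more, but at fewer of their own promoters. The IDR list is the authors' list of 3203 peaks, thresholded by the irreproducible discovery rate, which compares the ranks of peaks between replicates. It had a summit in the body or within 5 kb of 16 of the 31 genes (51.6%), against 39.4% of all protein-coding genes. The neuronal genes are long, with a median window of 41754 bp against 12166 bp for all genes. Among all genes with windows at least as long as the shortest of the 31, that of Ddc (13824 bp), the share was 50.7%. That limit sets only a shortest length, so these genes are not matched in length to the 31. By length class, given below, the share in the 31 was above that of all genes under 25 kb. It was below that of all genes in both longer classes (40.0% against 55.6%, and 36.4% against 59.9%). An IDR summit lay within 500 bp of an own TSS for 3 of the 31 (9.68%), against 15.2% of all genes and 21.3% of genes with windows of that length. These 3 were elav, sei and Nrx-1.

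**Figure D1:**
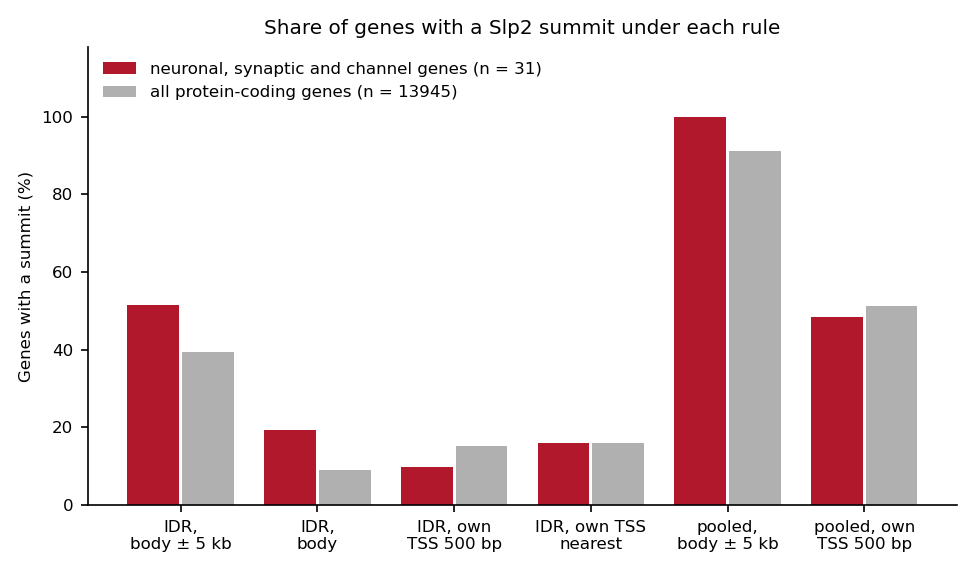
Share of genes with a Slp2 summit (percent, vertical axis) under 6 rules, for the 31 neuronal, synaptic and channel genes (red) beside all 13945 protein-coding genes (grey). The red bar is higher in windows of 5 kb (51.6% against 39.4%) and in gene bodies (19.4% against 9.06%), which are longer in the 31 genes, and lower within 500 bp of an own TSS in the IDR list (9.68% against 15.2%).

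Most of the peaks counted for the 31 genes were nearer to a neighbour's TSS. There were 21 different IDR peaks, of which 2 were counted for a pair of neighbours each (elav with Appl, and VAChT with ChAT). Only TSSs of protein-coding genes were searched. The nearest TSS was the gene's own for 6 of the 21 peaks and another gene's for 15. Of the 15, 8 lay within 500 bp of the TSS of a gene outside the list. Pairs of a gene and a peak in its window were also counted. The gene's own TSS was the nearest in 26.1% of 23 pairs at the 31 genes, against 35.1% of 8527 pairs at all genes. Among genes with windows of 13824 bp or more it was the nearest in 49.0% of 3929 pairs. A peak in the windows of several genes enters several pairs, so a share of pairs is not a share of peaks. A summit with its own TSS the nearest was found for 5 of the 31 genes (16.1%), which were elav, Syx1A, Shal, Ddc and Nrx-1, against 16.0% of all genes and 28.8% of genes with windows of 13824 bp or more. A summit inside the gene body was found for 6 (19.4%), against 9.06% of all genes and 22.7% of the genes with windows of 13824 bp or more.

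**Figure D2:**
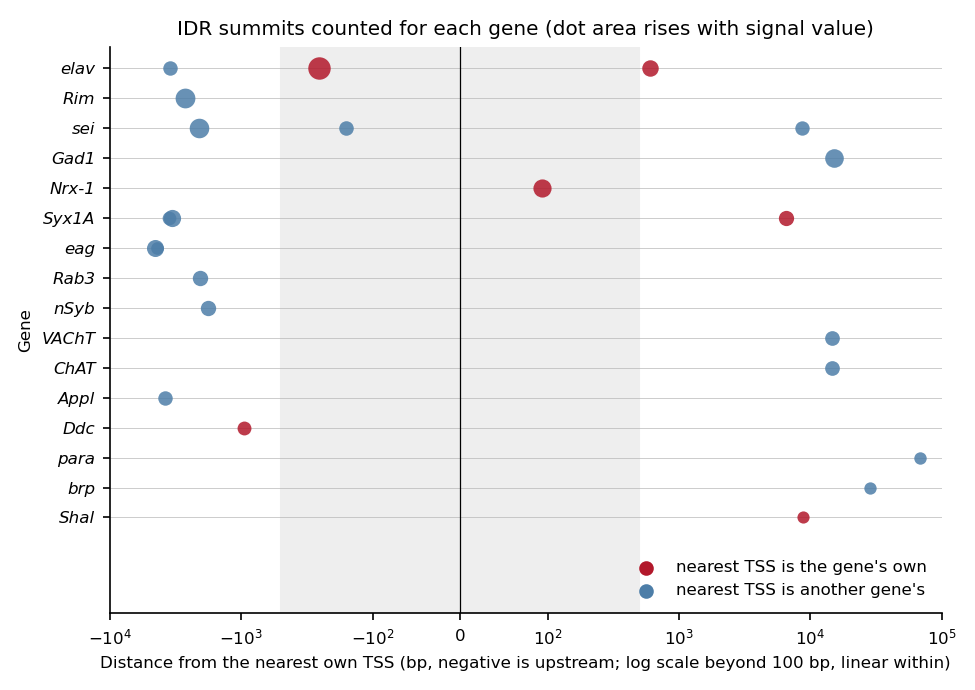
Distance from each IDR summit to the nearest own TSS (bp, horizontal axis, logarithmic beyond 100 bp on each side) for the 16 genes with such a summit in the window, ordered by their strongest signal value. The grey band marks 500 bp on each side of the TSS, and it holds 1 dot each for elav, sei and Nrx-1; 6 of the 21 peaks (red) have the gene's own TSS as the nearest.

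Window length went with the peaks differently in the 31 genes and in all genes. Of the 10 neuronal genes with windows under 25 kb, 8 had an IDR summit in the window (80.0%), against 37.5% of all such genes, and only Shaw and VGlut had none. These 10 had windows of 13824 bp or more, while the class of all genes also holds shorter ones. Its shares of 37.5% and, below, 14.5% are thus not matched in length. Among all genes with windows of 13824 bp or more, with no upper limit, the shares were 50.7% and 21.3%. Of the 10 with windows of 25 kb to under 50 kb, 4 had one (40.0%), against 55.6%. Of the 11 with windows of 50 kb or more, 4 had one (36.4%), against 59.9%. Within 500 bp of an own TSS the counts were 2 of 10, 1 of 10 and 0 of 11 in these length classes, against 14.5%, 21.2% and 21.7% of all genes. The merged windows of the 31 genes covered 1512 kb and held 13.9 IDR summits per Mb, against 23.9 per Mb over the 6 arms. Pooled summits, from the longer list that the authors called on both replicates together, were also sparser, at 122 per Mb in the windows and 214 per Mb over the arms. The length classes were chosen with these data at hand, and no test was made of the differences.

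The RNA-binding protein genes elav and fne, which are paralogs, stood apart in their peaks. The elav gene, whose protein is the common marker of postmitotic neurons, had the strongest peak of all 31 genes. Its summit lay on X at 523480, 254 bp upstream of the elav TSS, with a signal value of 312, a score of the authors' caller that serves to rank peaks within a list. It ranked 157 of the 3203 IDR peaks, with rank 175 in replicate 2 and rank 174 in replicate 3. Another elav peak lay 597 bp downstream of the TSS, in an intron (summit 522629, signal 152, rank 753). It ranked 704 in replicate 2 and 842 in replicate 3, so both peaks at the elav start ranked nearly alike in the 2 samples. The peak that elav shares with Appl (summit 526691, signal 109, rank 1437) lay 3465 bp upstream of elav, with the TSS of CG4293 the nearest. All 3 peaks lie inside the body of arg, the arginase gene, which overlaps elav on the opposite strand. The fne gene (X, 12917477 to 12950417) had no IDR peak. Its strongest pooled peak had a signal of 56.7 and rank 3974, next below the length of the IDR list among the 31 genes, and lay 5999 bp from an own TSS.

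The sequences around summits whose nearest TSS was the gene's own are shown because no other protein-coding gene's TSS lies nearer to these peaks. Even so, both elav peaks also lie inside arg, and the Syx1A peak lies inside eIF4EHP, past the 3' end of Syx1A. Of the 6 peaks with the own TSS nearest, those of Nrx-1 and Ddc overlap exons within these windows and are not printed. The forkhead letters TGTTTAC and TATTTAC were searched on both strands within 100 bp of each summit. Each sequence is the dm6 plus strand of Release 6 from 100 bp before to 100 bp after the summit, in lower case with matches in capitals. The windows are chrX:523380-523580 and chrX:522529-522729 for elav, chr3R:24099095-24099295 for Syx1A and chr3L:19575726-19575926 for Shal.
elav, upstream peak: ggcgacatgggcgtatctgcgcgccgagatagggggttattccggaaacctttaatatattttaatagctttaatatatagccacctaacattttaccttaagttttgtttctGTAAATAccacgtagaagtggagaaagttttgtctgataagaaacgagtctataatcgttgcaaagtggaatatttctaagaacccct
elav, intronic peak: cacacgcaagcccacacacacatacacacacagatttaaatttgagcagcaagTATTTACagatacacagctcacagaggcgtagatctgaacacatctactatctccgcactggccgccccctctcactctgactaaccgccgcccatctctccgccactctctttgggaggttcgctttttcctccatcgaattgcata
Syx1A, peak downstream: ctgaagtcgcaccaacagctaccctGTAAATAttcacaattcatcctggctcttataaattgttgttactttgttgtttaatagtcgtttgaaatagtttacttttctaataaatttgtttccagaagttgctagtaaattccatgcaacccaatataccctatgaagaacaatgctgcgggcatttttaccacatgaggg
Shal, intronic peak: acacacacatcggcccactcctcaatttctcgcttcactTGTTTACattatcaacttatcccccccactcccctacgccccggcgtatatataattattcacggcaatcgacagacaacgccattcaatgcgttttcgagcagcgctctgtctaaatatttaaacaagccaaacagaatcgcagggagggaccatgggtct

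A match stood in each of these windows, read as TATTTAC or its complement in both elav windows and at Syx1A, and as TGTTTAC at Shal. The match lay 16 bp from the summit of the upstream elav peak, 44 bp from that of the intronic one, 72 bp at Syx1A and 58 bp at Shal. Over the 21 peaks, 6 had such letters within 100 bp (28.6%), against 15.4% of all IDR peaks and 11.9% of all promoters in windows of the same length (201 bp), which ran from 150 bp before to 50 bp after the outermost TSS. With 21 peaks, each one moves this share by nearly 5 percentage points. Of the 6 peaks whose nearest TSS was the gene's own, 4 had the letters, and of the 15 nearest to another gene's TSS, 2 had them, at CG18428 near Syx1A and at sei. That split was looked at after the sequences were seen, and no test was made. TATCGATA, the site of the promoter factor DREF, was in none of the 21 windows, against 4.09% of all IDR peaks and 8.22% of promoters. GAGAG, bound by GAGA factor, was in 7 (33.3%), against 23.7% of IDR peaks and 22.7% of promoters. CAGGTAG, the site of the early activator Zelda, was in none, against 1.03% of IDR peaks and 1.1% of promoters.

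**Figure D3:**
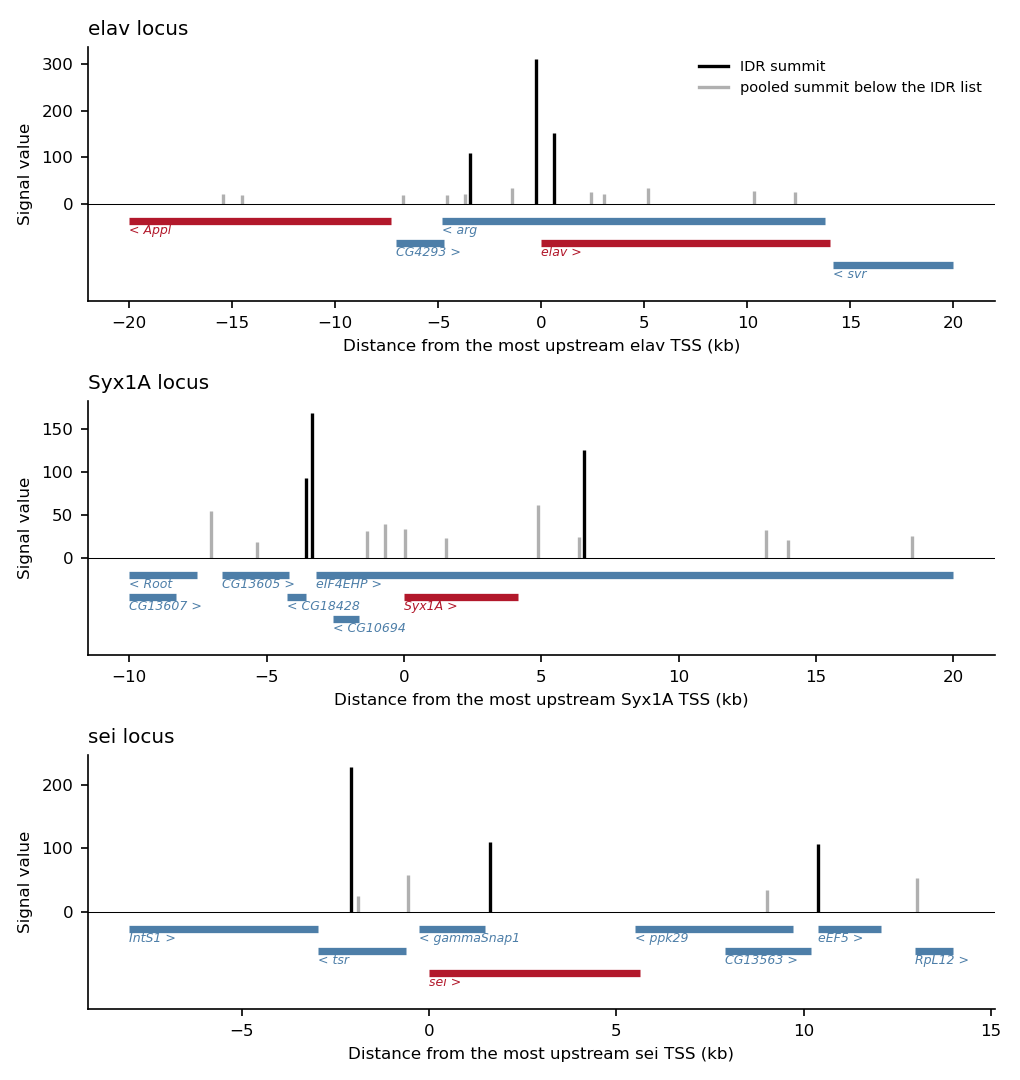
Signal value of pooled peaks (vertical axis, authors' score) against distance from the most upstream TSS of elav, Syx1A and sei (kb, each gene running left to right), with IDR summits in black, weaker pooled summits in grey, listed genes in red and other protein-coding genes in blue. At elav the tallest peak (312) stands 254 bp upstream of the TSS, while at Syx1A the pair of peaks upstream (169 and 93.2) stands at eIF4EHP and CG18428.

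Among the 8 genes for vesicle fusion and vesicle proteins, 3 had an IDR peak in the window (37.5%) and none at its own TSS. Over all protein-coding genes the shares were 39.4% and 15.2%. Over genes with windows of 13824 bp or more they were 50.7% and 21.3%. These shares are also the background for the smaller groups below, and no group was tested. Syx1A, which encodes the syntaxin of the synaptic membrane, had 3 peaks. The strongest (3R, summit 24109125, signal 169) lay 165 bp from the TSS of eIF4EHP, which encodes a cap-binding translational repressor, and a weaker one (summit 24109328, signal 93.2) lay 8 bp from the TSS of CG18428. The remaining peak (summit 24099195, signal 125, rank 1124) lay 6568 bp downstream of the Syx1A TSS, in an intron of eIF4EHP, and ranked 1289 in replicate 2 and 1352 in replicate 3. Syx1A spans 4164 bp and lies inside eIF4EHP on the same strand, so this summit lies past the 3' end of Syx1A. nSyb, which encodes neuronal synaptobrevin, had 1 peak (3L, summit 1639532, signal 127) that lay 179 bp from the TSS of Bgb, a partner of Runt-family factors, and 1780 bp upstream of nSyb. The peak of Rab3, which encodes a vesicle GTPase, lay 87 bp from the TSS of CG7220 and 2045 bp upstream of Rab3 (2R, summit 10731248, signal 127). The other 5 of these genes had no IDR peak. The strongest pooled peaks of Syn (synapsin), cpx (complexin), unc-13 (a priming factor), Syt1 (the calcium sensor synaptotagmin) and Snap25 (a SNARE) ranked 5546, 5686, 7045, 10606 and 12622, with signal values of 45.1, 44.3, 38.6, 30.4 and 27.7. Snap25 is the longest of the 31 genes, spanning 225026 bp on 3L, and its window held 15 entries of the relaxed list of replicate 3 and 0 of replicate 2.

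Both active zone scaffold genes had an IDR peak outside their bodies, where 39.4% of all genes had one in the window. Rim had a strong one upstream (3R, summit 17919239, signal 235, rank 316), which ranked 538 in replicate 2 and 215 in replicate 3. It lay in intergenic sequence 2661 bp from the Rim TSS and 593 bp from a TSS of cpo, which encodes an RNA-binding protein known from the nervous system. The peak of brp, which encodes Bruchpilot, was weak and uneven between the samples (2R, summit 9544965, signal 68.8, rank 2953). It ranked 1735 in replicate 2 and 12872 in replicate 3, and lay 28514 bp from a brp TSS, in the 3' UTR of the neighbour CG1888.

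Of the sodium and calcium channel genes, para had an IDR peak and cac had none. para, the gene of the voltage-gated sodium channel, had its summit in its own 3' UTR, 68654 bp from an own TSS (X, summit 16458760, signal 70.6, rank 2845). This peak ranked 6050 in replicate 2 and 2006 in replicate 3. cac, which encodes the calcium channel of the active zone, spans 53808 bp and had only 1 pooled summit in its window, with signal 26.1 and rank 14140.

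Of the 7 potassium channel genes, Shal, eag and sei had IDR peaks (42.9%, against 39.4% of all genes). sei, which encodes a channel of the ERG type, had 3, in a stretch of closely packed genes. The strongest lay in an intron of tsr, the cofilin gene, 2082 bp upstream of sei (2R, summit 24045329, signal 229, rank 337). The one at an own promoter (summit 24049045, signal 110, rank 1387) lay 158 bp from a sei TSS and 142 bp from the TSS of gammaSnap1 on the opposite strand, so it cannot be given to either gene by position. It ranked 2151 in replicate 2 and 1484 in replicate 3. The remaining one (signal 107) lay 9 bp from the TSS of eEF5, a translation factor gene. Both peaks of eag (signal 165 and 74.8) lay within 380 bp of the TSS of pdgy and more than 4 kb upstream of eag. The peak of Shal lay in its own intron, 8742 bp from its TSS (3L, summit 19575826). With a signal of 66.2 and rank 3157, it was the weakest of the 21, just inside the list, whose weakest signal was 65.4. It ranked 3779 in replicate 2 and 2587 in replicate 3. Shab, slo, Shaw and Sh had no IDR peak, and their strongest pooled peaks ranked 5283, 9996, 10817 and 18398. The one at Shab lay 6 bp from an own TSS. The strongest peak of each ranked higher in replicate 3, at 3982 for Shab, 5467 for slo, 4812 for Shaw and 5430 for Sh. In replicate 2 these ranks were 5421 for Shab, 8532 for slo and 13446 for Sh, and Shaw had no peak. For each of these genes the strongest peak did not lie at the same site in every list. At Shab the one in replicate 3 lay 16767 bp from an own TSS, and the summit 10 bp from an own TSS ranked 4518 there. Sh, which spans 138941 bp, had 10 pooled summits in its window, none within 500 bp of its 8 annotated TSSs.

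Of the 6 genes for a transmitter receptor, synthesis and loading, 4 had an IDR peak (66.7%, against 39.4% of all genes). None had one within 500 bp of an own TSS, against 15.2% of all genes. ChAT and VAChT, which encode the enzyme that makes acetylcholine and the transporter that loads it, share a start at 18705501 on 3R and 1 peak (summit 18720036, signal 113, rank 1333). It lay in an intron of ChAT, 14535 bp from that start and downstream of VAChT, and ranked 851 in replicate 2 and 1976 in replicate 3. The peak of Gad1, which encodes the enzyme for GABA synthesis, lay in an intron of wit, a BMP receptor gene (3L, summit 4070582, signal 204, rank 430), 15261 bp from a Gad1 TSS. Ddc encodes dopa decarboxylase, an enzyme of dopamine and serotonin synthesis that the epidermis also uses for cuticle. The peak of Ddc (2L, summit 19121264, signal 97.3, rank 1715) lay 958 bp upstream of its TSS, with no TSS of another protein-coding gene nearer. It ranked 1851 in replicate 2 and 1560 in replicate 3. VGlut, the vesicular glutamate transporter gene, and Rdl, a GABA receptor gene, had none, with strongest pooled ranks of 7967 and 16737. The strongest peak of VGlut ranked 7760 in replicate 2 and 14179 in replicate 3. These were different peaks, 1605 bp and 4851 bp from an own TSS. Rdl had no peak in replicate 2 and its strongest ranked 6598 in replicate 3, so the order of these genes differed between the samples.

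Of the surface and cytoskeletal genes, Nrx-1, which encodes the presynaptic adhesion protein neurexin, had a peak at its own promoter. The summit lay 94 bp downstream of an annotated TSS (3R, summit 22469275, signal 192, rank 479), and the peak ranked 665 in replicate 2 and 413 in replicate 3. No other protein-coding gene had a TSS within 500 bp of it. Appl, the gene of the amyloid precursor-like protein, had only the peak it shares with elav, 3810 bp upstream. Nlg1 (neuroligin) and futsch (a microtubule-associated protein) had no IDR peak. Their strongest pooled peaks, with signal values of 22.6 and 20.8, ranked 18704 and 21915, lower than those of the other genes in the pooled list. This order did not hold in each sample. The strongest peak of Nlg1 ranked 23533 in replicate 2 and 13715 in replicate 3, and that of futsch 21907 and 8579. For both genes the strongest peak lay at a different site in each replicate. The lowest rank among genes with a peak was that of cac in replicate 2 (26045) and of VGlut in replicate 3 (14179).

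**Figure D4:**
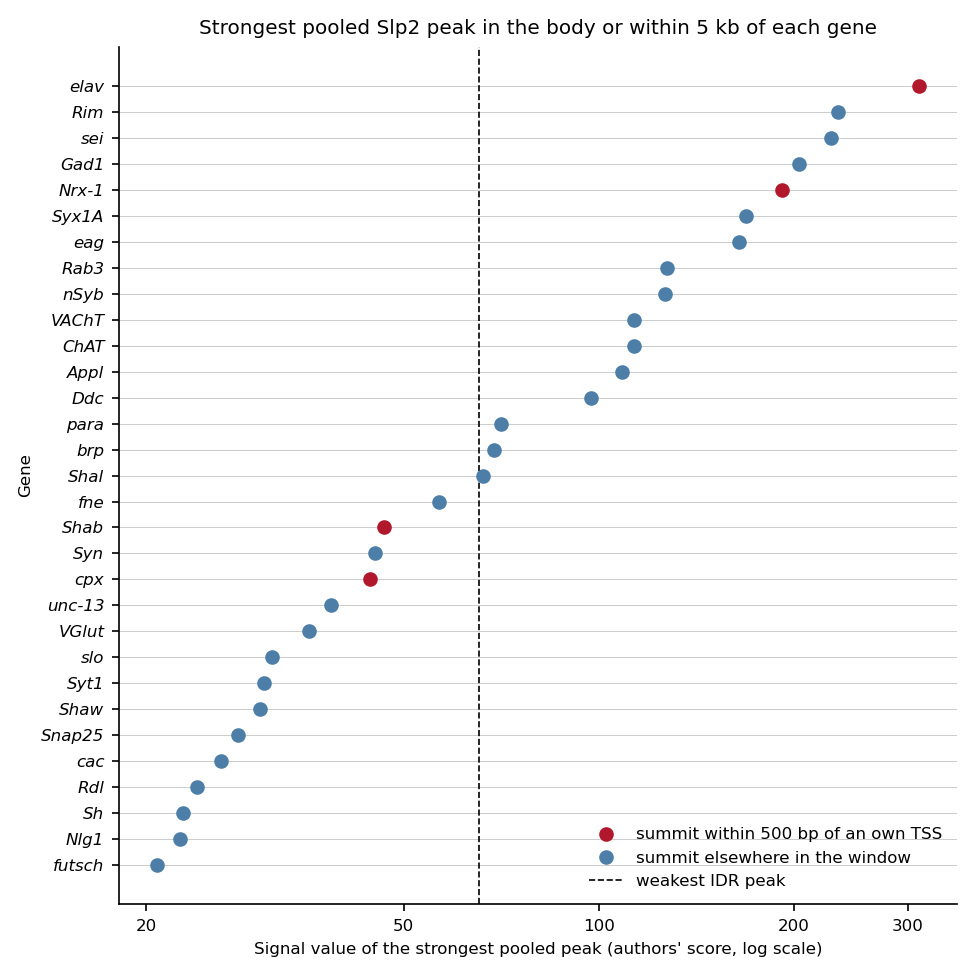
Signal value of the strongest pooled peak in the window of each of the 31 genes (authors' score, logarithmic axis), in red where its summit lay within 500 bp of an own TSS. The dashed line is the weakest IDR peak (65.4): 16 genes lie above it, from Shal at 66.2 to elav at 312, and 15 below it, from fne at 56.7 to futsch at 20.8.

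In the pooled list of 28637 entries, which the readme files name as peaks and background together, all 31 genes had a summit in the window, against 91.1% of all genes and 96.9% of those with windows at least as long as the shortest of the 31. Within 500 bp of an own TSS, 15 had one (48.4%), against 51.4% of all genes and 68.1% of those longer ones. Besides elav, sei and Nrx-1, these were Shab, Shal, cpx, eag, unc-13, Syx1A, Syt1, Syn, Ddc, fne, Shaw and Gad1. The pooled summits at these 12 further promoters ranked from 5283 at Shab to 25741 at Gad1. nSyb, brp, Rim, Rab3, Snap25, para, cac, Sh, slo, Rdl, VAChT, ChAT, VGlut, futsch, Appl and Nlg1 had no pooled summit within 500 bp of an own TSS.

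Most of the 21 peaks were among the strongest of both samples. Taking from each sample as many top-ranked peaks as the IDR list has (3203), replicate 2 held 19 of the 21 and replicate 3 held 20. The pairs of close peaks at Syx1A and at eag each overlapped a common peak in either replicate, so the 19 rest on 18 different peaks of replicate 2. Both peaks of the Syx1A pair matched the same replicate 2 summit (rank 883). Both sets held 18 (85.7%), against 71.0% of all IDR peaks. The exceptions were the peaks at brp, missing from the strongest set of replicate 3, and at para and Shal, missing from that of replicate 2. These 3 are also the weakest of the 21. The median signal of the 21 peaks was 125, against 102 for all IDR peaks and 1453 for the strongest of these, and 15 of the 21 lay above that median. By position, 10 of the 21 summits lay within 500 bp of a TSS of some protein-coding gene (47.6%, against 50.9% of all IDR summits), and 7 lay in introns (33.3% against 32.3%). There were 2 in intergenic sequence (9.52% against 15.3%) and 2 in 3' UTRs (9.52% against 0.812%), which are those of brp and para. No test was made of these shares.

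**Figure D5:**
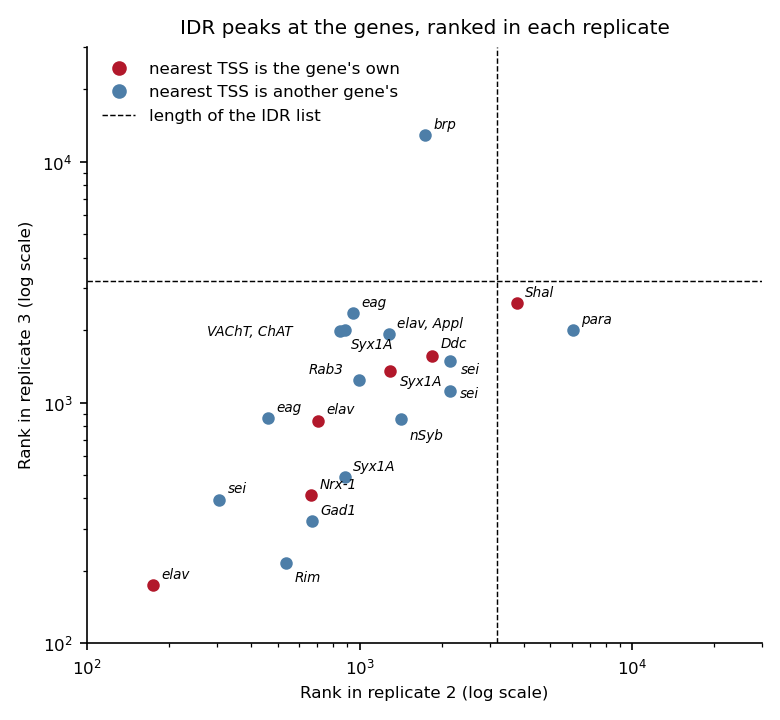
Rank of each of the 21 IDR peaks at the 31 genes in the list of replicate 2 (horizontal) and of replicate 3 (vertical), both on logarithmic axes, taking the strongest peak with a summit within 200 bp. Dashed lines mark the length of the IDR list (3203): 18 peaks lie inside both, while para and Shal lie outside in replicate 2 and brp in replicate 3.

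By arm, IDR peaks were found at 3 of 3 genes on 2R (brp, Rab3 and sei), 5 of 9 on 3R, 3 of 6 on 3L, 4 of 8 on X, 1 of 4 on 2L and 0 of 1 on chromosome 4, where unc-13 lies. Among all genes the share ran from 22.5% on chromosome 4 to 42.4% on 3L, and it was 38.6% on 2R.

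Further neuronal genes in 5 lists, 109 in all, had IDR peaks in the window at 35 (32.1%) and within 500 bp of an own TSS at 5 (4.59%), against 39.4% and 15.2% of all genes. Their median window was 27326 bp, against 12166 bp for all genes. Of all genes with windows of 25 kb to under 50 kb, the class that holds this median, 55.6% had a summit in the window. At an own TSS the share in this class was 21.2%. The 31 genes, whose median window of 41754 bp lies in the same class, were mostly set above against genes of 13824 bp or more. Their own shares of 51.6% and 9.68% are also below those of this class, so the 2 comparisons are not alike. Other transmitter receptor genes had few, 4 of 34, none at an own TSS, and the strongest peaks counted for them, at nAChRalpha7 (signal 204), nAChRalpha5 (signal 151) and Nmdar1 (signal 94.4), had the TSSs of out, NimC4 and Itpr as the nearest. Other ion channel genes had the most of these lists, 11 of 19 (57.9%), with 2 at an own TSS. Their median window was 33966 bp, and the share was near the 55.6% of all genes with windows of 25 kb to under 50 kb. The strongest there were at Shawl (signal 264), Slob (signal 260) and NaCP60E (signal 259). The nearest TSS was that of Aldh for the Shawl peak and its own for the Slob peak, 17747 bp away, and the peak of NaCP60E lay 106 bp from an own TSS and 76 bp from that of RpL41. Other vesicle cycle and active zone genes had 10 of 26, with 2 at an own TSS, led by Ca-beta (signal 130), Sap47 (signal 128) and CASK (signal 120). The Ca-beta peak had its own TSS as the nearest, while those of Sap47 and CASK lay 13 bp from the TSS of CG32856 and 954 bp from that of tsl. Transmitter synthesis and transport genes had 3 of 11 and none at an own TSS, led by ple (signal 164), which encodes tyrosine hydroxylase, Ace (signal 81.3) and SerT (signal 78.9), with the TSSs of CG8519, Ravus and Rpn8 as the nearest. Genes of neuronal identity, adhesion and cytoskeleton had 7 of 19, with 1 at an own TSS, led by tau (signal 299), pros (signal 123) and Rbp9 (signal 120), a paralog of elav. These peaks had the TSSs of CG5611, mRpL40 and gammaTub23C as the nearest, and lay more than 10 kb from the own TSS.

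Markers of other cell types of the embryo were counted the same way. Over all protein-coding genes, 39.4% had an IDR peak in the window and 15.2% at an own TSS. Median windows were 15744 bp for the glial and 21355 bp for the muscle markers, against 12166 bp for all genes. Glial markers had an IDR peak in the window at 4 of 10 and at an own TSS at 2 of 10, led by nrv2 (signal 431), moody (signal 325) and Gs2 (signal 197). The peak counted for nrv2 lay 369 bp from the TSS of nrv1 and 7369 bp from that of nrv2, while those of moody and Gs2 had the own TSS as the nearest. Muscle markers had one at 2 of 11, sls (signal 198) and Tm1 (signal 147), with 2 of 11 at an own TSS. The sls peak lay 263 bp from an own TSS, and the strongest one counted for Tm1 lay 100 bp from the TSS of Cp190 and 2879 bp from that of Tm1.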

How the data were processed

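The authors deposited peak lists on dm6 for each replicate, for both replicates together and after IDR, per the deposited readme files. Each peak carries a signal value, a score deposited by the authors with no stated scale. The position of a summit is the deposited offset added to the peak start, another value of the deposited lists. The aligner, the caller and the IDR threshold are not given in the sources used here. Fragments of 200 to 800 bp were used, per the labels. Medians of peak width were 404 bp in the IDR and pooled lists, 430 bp in replicate 2 and 370 bp in replicate 3. The 3203 IDR peaks are the strongest 3203 of the pooled list. Each signal value there is 1 score from both replicates called together, so no estimate of its error can be given. Lists on dm3 were not used.

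Gene models were those of Ensembl release 115 (BDGP6.54) and sequence was Release 6. All annotated transcript starts of a gene counted as its TSSs. Only protein-coding genes were used, so starts of other kinds of genes were not searched. A summit counted for a gene when it lay in the body or within 5 kb, and for its promoter within 500 bp. The samples form 1 group, so the results are counts set beside all 13945 genes, with no test. The members and lists were chosen with earlier results of these data known. All 31 members are named, with up to 3 genes of each further list by signal. Of the further symbols, Caps, Trh and Henna matched no gene and Clc-a was matched as ClC-a. The assignment code was run on simulated peaks, each planted within 500 bp of an own TSS. Of 200 planted genes among 13945, 200 were found in the window and 200 at an own TSS. The planting fixed this outcome, so it checks the code only. It does not show whether a peak belongs to the gene it was counted for. The scripts used Python 3.11.15, pandas 2.3.3 and numpy 2.4.6. Alternatives changed the window, the distance, the peaks, the replicate, the assignment and the letters searched.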

Additional observations from a re-analysis of the deposited data

How the results depend on the processing

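Of 52 alternative settings, 39 kept the counts within 1.5 times. The number of genes with an IDR peak depends on the window and on how a peak is given to a gene. It was 6 with the gene body only, 9 with windows of 2 kb and 5 where the nearest TSS had to be the gene's own. The number of different peaks was 6 with the body only, 9 with windows of 2 kb, 49 with windows of 20 kb and 6 with the nearest TSS. Genes with a peak at an own TSS numbered 5 within 2000 bp and 7 when as many pooled peaks again were added to the list. With pooled peaks within 2000 bp they numbered 27. Genes with their own TSS the nearest numbered 3 among peaks above the median rank of the list and 9 in the doubled list, both chosen after seeing the data. The background of summits in gene bodies was 9.06% over all genes and 22.7% over genes with windows at least as long as the shortest of the 31, chosen after seeing the data. With TGTTTAC alone, 2 peaks had a match. The window by construction sets which neighbours' peaks are counted, and the other causes were not tested. Genes were also counted on the 3203 strongest peaks of 1 replicate alone. In replicate 3, 15 genes then had a peak in the window, and in replicate 2, 14, with 3 at an own TSS in each. In the full lists of the replicates, 3 of the 31 genes had no peak in the window in replicate 2 and 0 in replicate 3. Ranks of the weaker peaks depended on the sample: without replicate 2, Snap25 ranked 5454, Syt1 4753, Sh 5430 and futsch 8579. At Syt1 and Sh the strongest peak then lay at another site than in the pooled list. Without summits at another gene's promoter, chosen after seeing the data, the count was 13. With 2 samples and unknown depth, a gene without a peak is not shown to be unbound.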
